A study of Mus musculus with 8 samples.

Results

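Replication-dependent histone genes encode the linker histone H1 and the core histones H2A, H2B, H3 and H4, which wrap newly copied DNA. Dividing cells make most of this RNA in S phase. Unlike other messenger RNAs it usually carries no poly(A) tail and ends just after a short stem-loop, which the stem-loop binding protein Slbp recognizes. Few cells divide in the adult kidney, and libraries that select poly(A) RNA miss most of these transcripts.

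The genes described here were the rows of the count table whose symbol starts with Hist1h, Hist2h, Hist3h or Hist4h. There were 68 of them among 22609 gene rows, 6 for H1, 18 for H2A, 19 for H2B, 12 for H3 and 13 for H4. RNA-Seq was performed on the kidney cortex of 4 aged (30 months by the labels) and 4 young (5 months) male C57BL6 mice, untreated and with 1 library per mouse. The libraries were depleted of ribosomal RNA rather than selected for poly(A), so RNA without a tail was counted. Counts were scaled to CPM, the count relative to the library's total after TMM normalization, and compared with the quasi-likelihood test of edgeR. A gene was called at a Benjamini-Hochberg adjusted p below 0.05 together with a fold change above 1.5. Adjustment ran over the 13944 genes with enough counts to test, of which 41 were histone genes.

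Gene counts totalled 14820804 to 19018543 pairs per aged library and 15152597 to 19821429 per young library, so that 3 counts, taken as the floor of detection, equalled 0.147 to 0.204 CPM (counting error only). All 11 markers of the proximal tubule, the main cell type of the cortex, were detected. Of these markers 3 had fold changes above 0 and 8 below (median log2 fold change -0.22), with 0 of 11 called. Their summed level follows the most abundant markers and need not match this median. It ran from 12026 to 39154 CPM in aged and from 41664 to 48075 CPM in young mice, with aged mouse 1 lowest. Aged mouse 1 also stood apart on the first principal component at -71.5, against a range of -16.3 to 2.26 in the other aged mice. Markers of T and NK cells summed to 7.56 to 10.8 CPM in aged and 3.37 to 7.40 CPM in young mice, and the plasma cell gene Igj was called higher (log2 fold change 2.65, adjusted p = 0.0311 by edgeR), while the other plasma cell marker tested had a fold change below 0 and was not called. Of 7 macrophage markers tested Csf1r was called lower (2.01-fold, adjusted p = 0.0472 by edgeR), and the other 6 had fold changes above 0 and were not called. Of the 6 erythroid markers Hba-a1, Hba-a2, Hbb-b1 and Hbb-b2 were at 0 in all libraries. The list still summed to 7.35 to 20.1 CPM in aged and 12.4 to 28.5 CPM in young mice. Whether pairs from these globin genes aligned to several places was not tested, so 0 is not read as absence of RNA. The part of cell composition in the results that follow was not tested. In bulk tissue fewer cells of a type cannot be told apart from less RNA per cell.

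The stem-loop is what sets these transcripts apart from other messenger RNAs, and it is shown for the genes on which the results turn. Each line gives the DNA of the coding strand in mm9 with the 16-nt stem-loop in capitals and 5 nt on either side.
Hist1h4h: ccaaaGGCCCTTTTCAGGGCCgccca
Hist1h4c: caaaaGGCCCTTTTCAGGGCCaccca
Hist4h4: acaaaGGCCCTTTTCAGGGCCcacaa
Hist2h4: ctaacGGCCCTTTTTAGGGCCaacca
Hist1h1c: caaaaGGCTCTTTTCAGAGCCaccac
Hist1h2bc: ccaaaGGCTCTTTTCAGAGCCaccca
Hist2h2ac: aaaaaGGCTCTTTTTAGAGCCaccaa
The sites lie at chr13:23623322-23623347 (plus strand) for Hist1h4h, chr13:23789953-23789978 (minus) for Hist1h4c, chr6:136752514-136752539 (minus) for Hist4h4 and chr3:96066857-96066882 (minus) for Hist2h4. Those of Hist1h1c, Hist1h2bc and Hist2h2ac lie at chr13:23831376-23831401 (plus), chr13:23776511-23776536 (plus) and chr3:96024336-96024361 (minus). The letters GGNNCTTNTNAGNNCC, sought within 150 nt after the stop codon on the coding strand, were found in 60 of the 66 histone genes with a coding model (90.9%) and in 6 of 21759 other coding genes (0.0276%), of which H2afx, the H2A.X gene, was one. In the 60 genes the stem-loop began 22 to 59 nt after the stop codon (median 32 nt). There were 8 distinct stem-loops. The 13 H4 genes carried 4 of them, and 0 of these 4 occurred in another class. The remaining 47 genes carried the other 4, of which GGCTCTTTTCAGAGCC was the most common with 36 genes. The letters were not found downstream of Hist1h2an, Hist1h2bp, Hist1h2bq, Hist1h2br, Hist2h2bb and Hist2h2be. The search used the stop codon of 1 model per gene. For Hist1h2bp, Hist1h2bq, Hist1h2br and Hist2h2bb this model is spliced and encodes 138, 135, 135 and 120 residues, against 126 in most H2B models. A stem-loop elsewhere in these genes would therefore be missed.

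The genes sit in 4 places in mm9. The Hist1 cluster holds 54 genes between 21807632 and 24026720 of chromosome 13, Hist2 holds 10 on chromosome 3 (9 of them placed, between 96023839 and 96082924), Hist3 holds 3 on chromosome 11 (58762413 to 58770176), and Hist4h4 stands alone on chromosome 6 (136752589 to 136752900). Promoters of 61 genes were found in the RefSeq table of GRCm38.p6 (250 bases before to 50 after the start). The letters TATAAA stood on either strand in 35 of them (57.4%), against 14.1% of 26964 other promoters, and the letters CCAAT in 52 (85.2%), against 37.8%. A match describes the letters only.

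Near-identical copies limit how far some of these genes can be read from counts. The authors' counting left pairs that aligned to several places unassigned. Their entries were 34.3% to 37.2% of all counted entries in aged and 36.5% to 39.1% in young libraries. A pair with several alignments can be entered more than once, so these are not shares of pairs. Of the 67 genes with a model in GENCODE vM1, 31 had none of their 100-nt windows in another mm9 locus at 98% identity or more (a near-identical copy), 36 had some, 30 had most, and 12 had all. The genes with no such window held 78.4% of the histone counts and those with most windows in a copy held 4.70%. Hist1h2ao, Hist1h2ap, Hist1h2bq, Hist1h2br and Hist2h2aa2 were at 0 in every library, and at least 91.0% of the windows of each lay in a copy. A low or zero count in this group therefore cannot be read as absence of RNA.

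**Figure D1:**
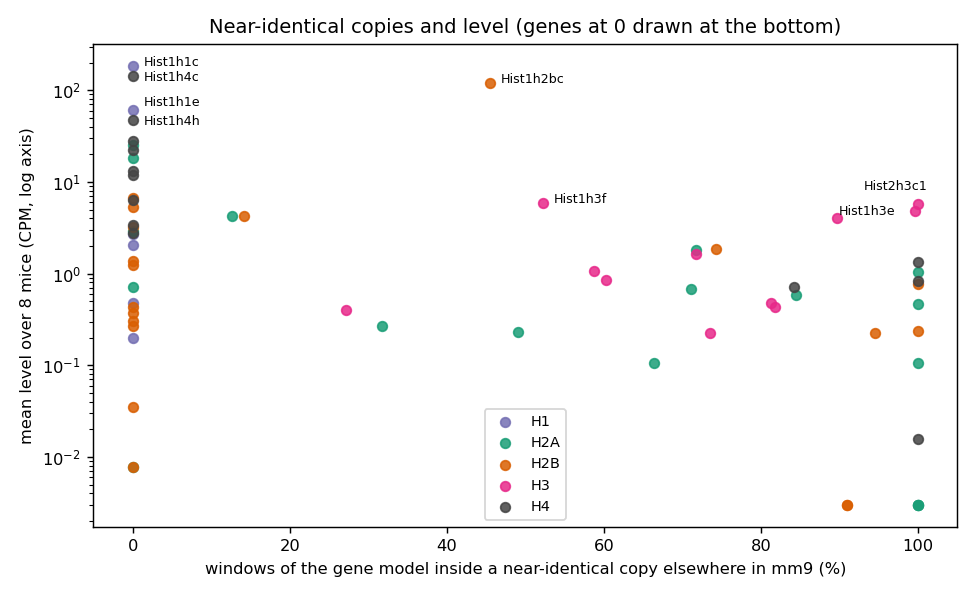
Mean level over the 8 mice (CPM, log axis) of the 67 histone genes with a model against the share of their 100-nt windows inside a near-identical copy (percent), 1 point per gene, coloured by histone class. Hist1h1c, Hist1h4c, Hist1h1e and Hist1h4h sit at 0 on the horizontal axis and Hist1h2bc at 45.5%, and the genes at the right end lie below 10 CPM.

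The H4 genes show how reads can be told apart although the protein is the same. All 13 encode a single protein of 103 residues, and their coding sequences are 85.4% to 100% identical. The first 60 coding bases follow for the most abundant gene, the gene called with age, and the gene that stands alone on chromosome 6, with capitals where a base differs from Hist1h4c.
Hist1h4c: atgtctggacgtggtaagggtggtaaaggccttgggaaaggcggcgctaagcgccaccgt
Hist1h4h: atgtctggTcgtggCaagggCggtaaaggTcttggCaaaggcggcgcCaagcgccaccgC
Hist4h4: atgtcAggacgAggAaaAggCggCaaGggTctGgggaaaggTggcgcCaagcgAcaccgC
They lie in mm9 at chr13:23790259-23790318 (minus), chr13:23622984-23623043 (plus) and chr6:136752841-136752900 (minus). Hist1h4h differs from Hist1h4c at 7 of these bases and at 14 of the 309 coding bases, and Hist4h4 at 13 and 40. None of these 3 genes had a window in a near-identical copy. Hist1h4m and Hist1h4n, by contrast, have identical coding sequences, and all windows of both lay in a copy. In the other classes the models of the 6 H1 genes encode 6 proteins, those of 18 H2A genes 9, of 18 H2B genes 12 and of 11 H3 genes 3. These counts depend on the models, since 1 of the 3 H3 proteins is the 181-residue model of Hist2h3c1, against 136 residues in the other H3 models.

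Most histone RNA came from a handful of genes. Only Hist1h1c, Hist1h4c and Hist1h2bc exceeded 100 CPM on average, 8 genes lay between 10 and 100 CPM, 24 between 1 and 10, and 33 at or below 1 CPM. Per kilobase of transcript the order was Hist1h4c with 362 CPM, Hist1h2bc with 164, Hist1h1c with 118, Hist1h4h with 102, Hist1h1e with 82.2, Hist4h4 with 71.8 and Hist1h4d with 70.4. Per kilobase of coding sequence the first 5 stood in the same order, at 463, 319, 290, 155 and 93.6 CPM. The testis forms were near or under the floor. Hist1h1t, the testis H1, had 1 to 6 counts in each library, and Hist1h2aa and Hist1h2ba had 1 count each, in young mouse 1.

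The summed level of all 68 genes did not separate the ages. It was 915, 896, 710 and 594 CPM in the aged mice (1 to 4) and 715, 729, 747 and 795 CPM in the young. The young mice lay within the range of the aged, which spread further (779 ± 154 against 747 ± 34.9 CPM, mean ± SD, n = 4 each). The log2 ratio of the means was 0.06, and it was -0.13 when Hist1h1c was left out of the sum, so its direction rests on that gene. Without aged mouse 1 the ratio was -0.03. Of the counts on genes, histone genes took 0.0812% ± 0.0180 in aged and 0.0718% ± 0.00302 in young mice (SD, n = 4).

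By class the sums differed in how far the ages lay apart. H2B summed to 85.6, 151, 140 and 123 CPM in aged and 161, 155, 175 and 188 CPM in young mice, so that the groups did not overlap (125 ± 28.6 against 170 ± 14.7 CPM, SD, n = 4). Most of this sum was Hist1h2bc. H1 summed to 453, 317, 182 and 186 CPM in aged and 219, 227, 196 and 229 CPM in young mice, with aged mice 1 and 2 above all young mice and aged mice 3 and 4 below them. H4 summed to 288 ± 55.2 against 274 ± 20.2 CPM, H2A to 57.0 ± 11.5 against 55.8 ± 3.00 CPM and H3 to 24.2 ± 6.27 against 29.1 ± 0.768 CPM (aged against young, SD, n = 4), and in these 3 classes the groups overlapped. Sums were given no test.

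Some histone genes have an annotation that extends past the stem-loop, as a transcript with a poly(A) tail would. In 11 of the 60 genes with a stem-loop the furthest annotated exon of any transcript ended more than 200 nt beyond it in the genome. Hist1h1c, Hist1h2bc, Hist3h2a and Hist2h4 were among them. This distance includes introns, as in Hist1h2bc, whose transcript of 736 nt has 2 exons. Whether that transcript keeps the stem-loop was not checked. These 11 genes summed to 383 ± 87.2 CPM in aged and 348 ± 22.9 CPM in young mice (SD, n = 4). The 49 genes whose furthest exon ended nearer summed to 289 to 465 CPM in aged and 364 to 399 CPM in young mice. The ages overlapped in both sums, and which end the counted RNA had was not tested.

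**Figure D2:**
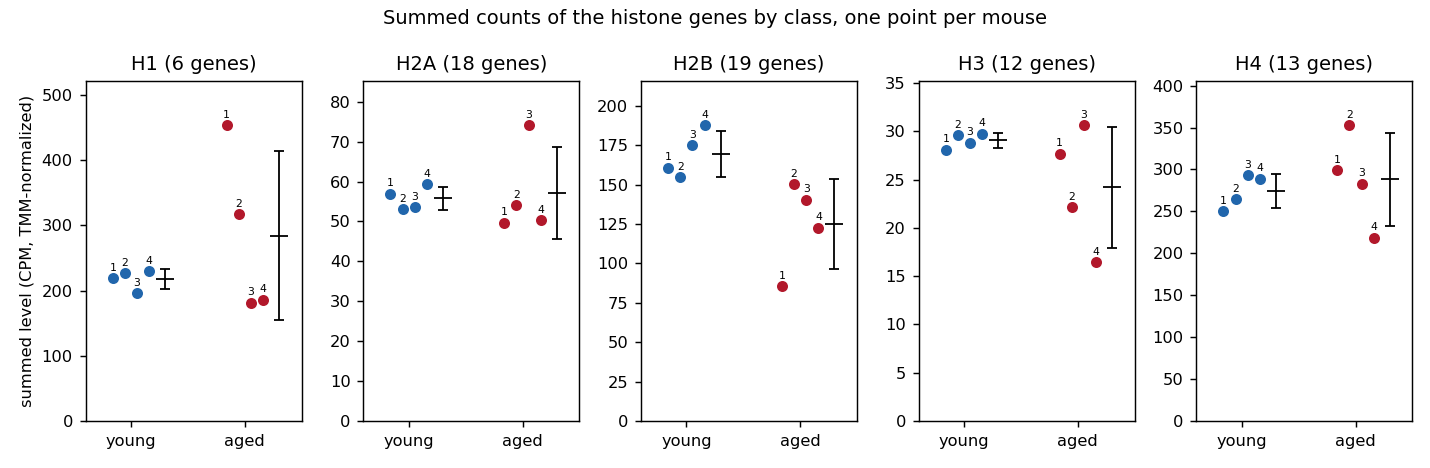
Summed level of the histone genes of each class (CPM, TMM-normalized, each panel from 0), 1 numbered point per mouse, young in blue and aged in red, with the mean and SD beside the points. The H2B points of the 4 aged mice lie below those of the 4 young mice, and aged mouse 1 stands highest for H1 at 453 CPM.

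Between the ages 1 of the 41 histone genes tested was called (2.44%), against 2.06% of all genes tested, so the share called was near that of the table as a whole. In the higher direction 0 were called (1.17% of all genes) and in the lower direction 1 (0.889%). The adjusted p alone also left 1 histone gene, against 2.95% of all genes. An unadjusted p below 0.05 was found for 14 of the 41 (34.1%), against 25.5% of all genes, 6 of them higher (13.4% of all genes) and 8 lower (12.1%). In aged mice 14 of the 41 had a fold change above 0 (54.1% of all genes) and 27 one below (45.9%). The median log2 fold change of the 41 was -0.21, against 0.03 for all genes. Scaling to library size only shifted the median of all genes to 0.14 and that of the histone genes to -0.10, so the histone genes lay lower than the median gene on both scales. Of the 41 genes 7 passed the filter on low counts in young libraries only and 1 in aged libraries only, and passing in this way favours a difference in that direction. With a filter on the mean over all 8 mice 15 of 42 were higher. The median standard error was 0.25 for the histone genes and 0.15 for all genes, so the fold changes of histone genes were less precise. Hist4h4 at 0.39 (SE 0.11) had a standard error below the median of all genes and still missed the call. Its 1.31-fold difference lay under the fold threshold, and its adjusted p was 0.0817 by edgeR.

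**Figure D3:**
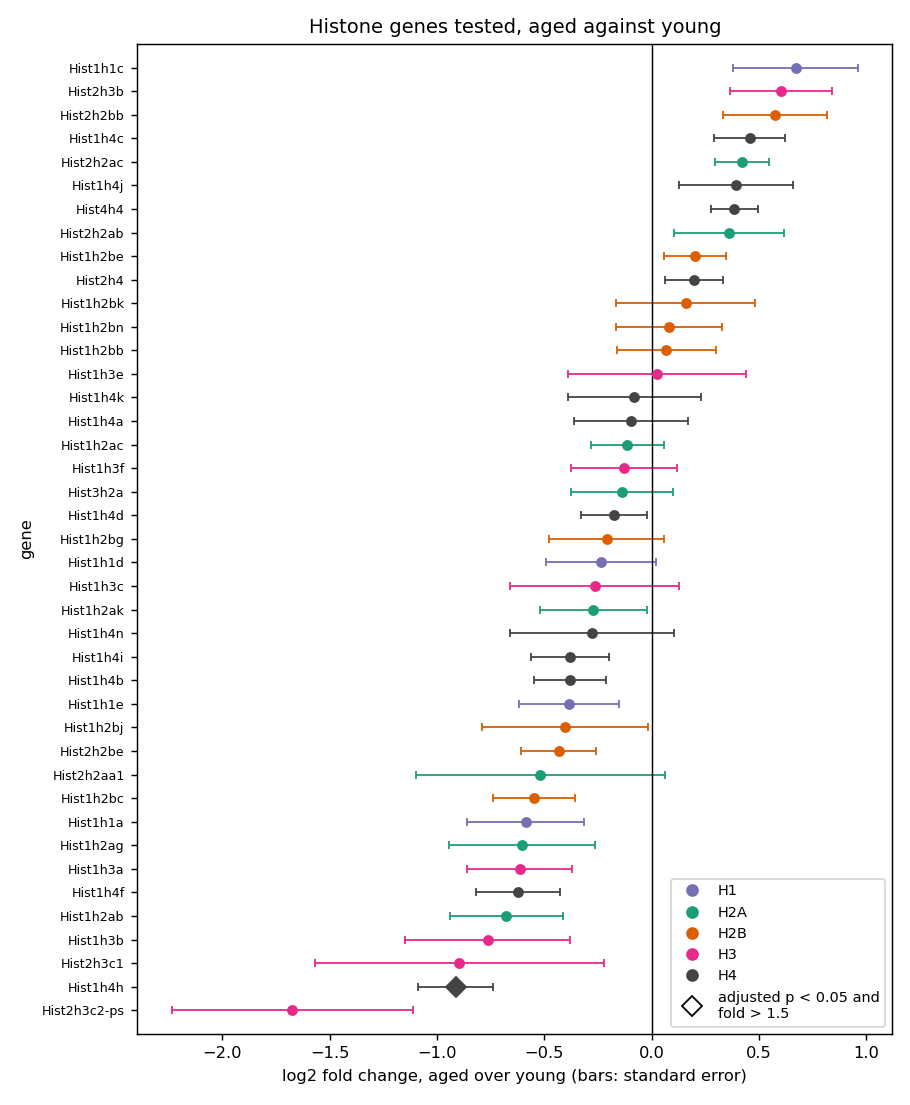
Log2 fold change of aged over young for the 41 histone genes tested, with standard errors as bars and colours for the histone class. Hist1h4h, drawn as a diamond at -0.91, is the gene called, and the genes spread from Hist2h3c2-ps at -1.67 to Hist1h1c at 0.67.

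Hist1h4h, an H4 gene on the plus strand of chromosome 13 (23622919 to 23623388, mm9), was the gene called. It had 663, 694, 600 and 423 counts in the aged mice (1 to 4) and 1037, 1090, 993 and 1031 in the young. The groups did not overlap. The level fell from 62.5 ± 4.22 CPM to 33.2 ± 9.08 CPM (SD, n = 4), or 1.88-fold (log2 fold change -0.91, SE 0.18, adjusted p = 0.0390 by edgeR). The gene ranked at 193 by p among all genes. The adjusted p exceeded 0.05 without aged mouse 3 (0.0729) and without young mouse 1, 2, 3 or 4 (0.115, 0.0928, 0.104 and 0.122), while without aged mouse 1 it was 0.0356. The log2 fold change stayed between -1.10 and -0.77 under all alternatives. Over those alternatives the adjusted p ran from 1.56e-04 with DESeq2 to 0.122.

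No other H4 gene was called. Hist1h4c, the most abundant of them, had 3575, 3245, 2857 and 2261 counts in aged and 1669, 2124, 1944 and 2290 in young mice. It had a log2 fold change of 0.46 (SE 0.17, adjusted p = 0.134 by edgeR), from 121 ± 15.6 CPM in young to 166 ± 37.1 CPM in aged mice (SD, n = 4), and aged mouse 4 lay within the young range. Hist4h4 had 523, 389, 529 and 408 counts in aged and 272, 410, 296 and 323 in young mice. In CPM all aged mice were above all young mice (25.4 ± 2.48 against 19.4 ± 2.06 CPM, SD, n = 4), and the log2 fold change was 0.39 (SE 0.11, adjusted p = 0.0817 by edgeR). Hist1h4f, at 2.19 ± 0.412 CPM in aged and 3.38 ± 0.386 CPM in young mice, lay lower in every aged mouse (log2 fold change -0.62, adjusted p = 0.101 by edgeR). Hist1h4d and Hist2h4 had log2 fold changes of -0.17 and 0.20 with overlapping groups.

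The ages did not overlap in 4 of the 41 histone genes (9.76%), Hist4h4 above and Hist1h2bc, Hist1h4f and Hist1h4h below, against 18.9% of all genes tested, so this share was not above the background.

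**Figure D4:**
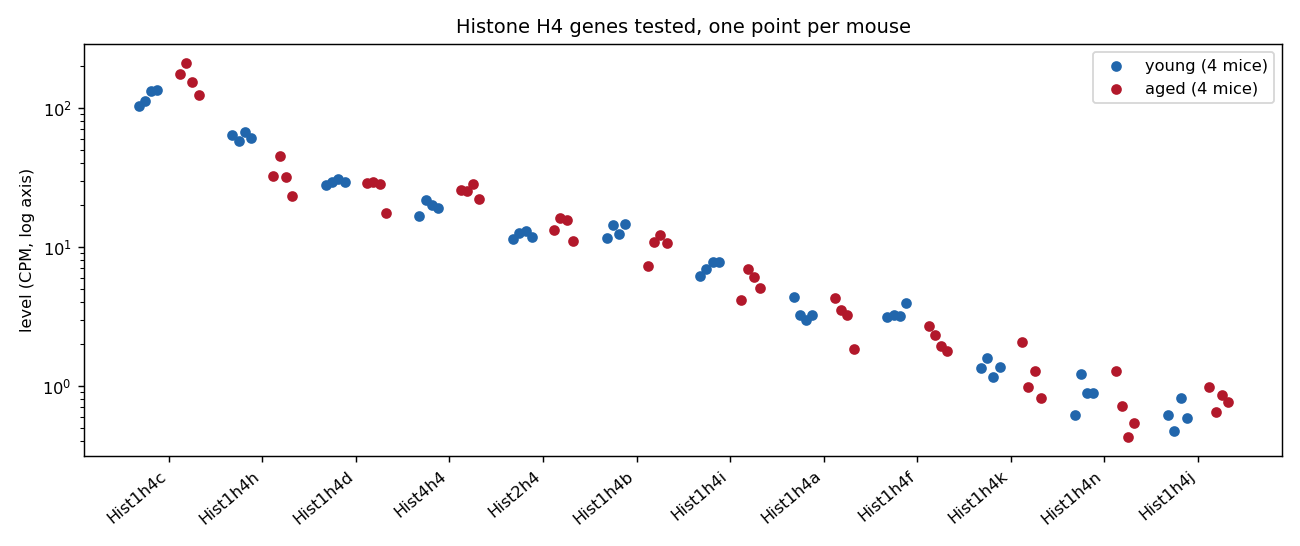
Level (CPM, log axis) of the 12 H4 genes tested, 1 point per mouse, young in blue and aged in red, ordered by mean level. Hist1h4h and Hist1h4f lie lower and Hist4h4 higher in all 4 aged mice, while the remaining genes overlap.

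The summed H4 level overlapped between the ages, and its make-up did not. The following shares were chosen after the values had been seen and are a description without a test. Hist1h4c made up 58.8%, 59.9%, 53.9% and 56.4% of the H4 counts in the aged mice (1 to 4) and 41.0%, 42.5%, 45.1% and 46.8% in the young. Hist1h4h made up 10.9%, 12.8%, 11.3% and 10.5% in aged and 25.5%, 21.8%, 23.0% and 21.1% in young mice. Neither share overlapped between the ages. The counts of Hist1h4c per count of Hist1h4h were 5.04 ± 0.377 in aged and 1.93 ± 0.251 in young mice (SD, n = 4), a ratio within each library that no scaling between libraries can alter.

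**Figure D5:**
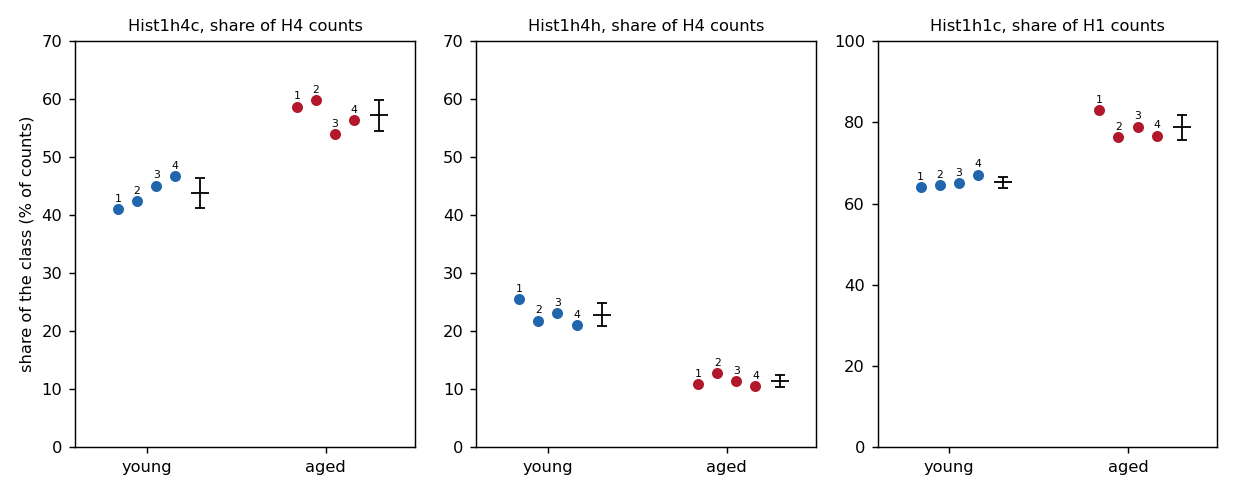
Share of the class counts (percent) held by Hist1h4c and Hist1h4h among H4 genes and by Hist1h1c among H1 genes, 1 numbered point per mouse with the mean and SD beside the points. In each panel the 4 aged mice (red) and the 4 young mice (blue) do not overlap.

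Among the linker histones Hist1h1c, which encodes H1.2, had 7677, 3723, 2683 and 2620 counts in aged and 2273, 2775, 1876 and 2608 in young mice. Aged mouse 1 was far above the rest and aged mice 3 and 4 were close to the young (226 ± 111 against 142 ± 11.2 CPM, SD, n = 4). The log2 fold change was 0.67 (SE 0.29, adjusted p = 0.189 by edgeR), and without aged mouse 1 it was 0.31, its smallest value over the alternatives. Aged mouse 1 was the library with the lowest sum of proximal tubule markers, a sum weighted to the most abundant of them. The part of cell composition was not tested. Hist1h1e, which encodes H1.4, had 1442, 1070, 637 and 716 counts in aged and 1171, 1379, 922 and 1193 in young mice, with a log2 fold change of -0.38 (SE 0.23, adjusted p = 0.319 by edgeR). Of the 4 H1 genes tested 1 had a fold change above 0 and 3 below. Hist1h1c held 83.1%, 76.4%, 79.0% and 76.7% of the H1 counts in aged and 64.1%, 64.5%, 65.1% and 67.2% in young mice, again without overlap and again chosen after the values had been seen.

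Of the H2B genes, Hist1h2bc was by far the most abundant. It had 1244, 1834, 2068 and 1861 counts in aged and 2158, 2433, 2200 and 2741 in young mice. All aged mice were below all young mice (98.1 ± 25.7 against 143 ± 15.3 CPM, SD, n = 4). The log2 fold change was -0.55 (SE 0.19, adjusted p = 0.123 by edgeR), which did not pass. Since 45.5% of its windows lay in a copy, its counts are uncertain in part. Hist2h2bb, in which no stem-loop was found, had a log2 fold change of 0.57 (SE 0.24, adjusted p = 0.177 by edgeR). Of the 9 H2B genes tested 5 were higher and 4 lower.

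The H2A genes were led by Hist3h2a and Hist2h2ac. Hist3h2a had 302, 313, 676 and 456 counts in aged and 442, 471, 346 and 510 in young mice, with aged mouse 3 above all others and aged mice 1 and 2 below them (log2 fold change -0.14). Hist2h2ac had 440, 324, 447 and 294 counts in aged and 258, 275, 237 and 256 in young mice, or 20.6 ± 3.32 against 15.4 ± 0.725 CPM (SD, n = 4). It had a log2 fold change of 0.42 (SE 0.13, adjusted p = 0.0916 by edgeR). Hist1h2ab, with 71.7% of its windows in a copy, had a log2 fold change of -0.68 (SE 0.26, adjusted p = 0.152 by edgeR). Of the 8 H2A genes tested 2 were higher and 6 lower.

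H3 was the class hardest to read. Of its 12 genes Hist2h3c2-ps had no model in the annotation used, and all but Hist1h3d of the other 11 had most of their windows in a copy. Hist2h3c1, all of whose windows lay in a copy, had 12, 30, 198 and 53 counts in aged and 98, 110, 128 and 158 in young mice, and aged mouse 3 was above all other mice. Hist2h2aa1, an H2A gene whose model overlaps it on the same strand and also lies wholly in copies, followed the same order in the aged mice with 3, 9, 36 and 14 counts, against 17, 17, 23 and 24 in the young. Hist2h3c2-ps, named as a pseudogene, had 4, 4, 26 and 5 counts in aged and 33, 25, 24 and 32 in young mice. It had a log2 fold change of -1.67 (SE 0.56, adjusted p = 0.116 by edgeR), and without aged mouse 3 it was -2.80 (adjusted p = 0.0190 by edgeR), which would be called. Only aged mouse 3 among the aged mice, and all 4 young mice, lay above the filter on low counts, so the gene was tested through the group in which it was high. Aged mouse 3 was thus the highest of the aged mice in all 3 of these genes. Hist2h3b had a log2 fold change of 0.60 (SE 0.24, adjusted p = 0.158 by edgeR), and without aged mouse 4 it was 0.78 (adjusted p = 0.0319 by edgeR), which would also be called. Hist1h3e had 199, 58, 67 and 40 counts in aged and 88, 103, 61 and 68 in young mice, a log2 fold change of 0.02 that was -0.59 without aged mouse 1. Of the 8 H3 genes tested 2 were higher and 6 lower.

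Many histone genes lie head to head and share the stretch between their starts. There were 14 such pairs with starts at most 1000 nt apart (167 to 692 nt), and 13 of them joined an H2A with an H2B gene. Both genes could be tested in 4 pairs, and in 2 of these the fold changes had the same sign. Hist2h2ac and Hist2h2be, 240 nt apart, had log2 fold changes of 0.42 and -0.43. Hist1h2ac and Hist1h2bc, 250 nt apart, stood at 10.8 and 319 CPM per kilobase of coding sequence. Hist2h2be and Hist1h2ac were named for their pairs after their values were seen.

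Other genes of the histone pathway were read from lists of genes with known roles, and edgeR called 0 of the 129 genes tested in the 6 lists (40 of them, or 31.0%, had an unadjusted p below 0.05, against 25.5% of all genes). DESeq2 called 5 (3.88%), against 6.26% of all genes. Of 20 tested genes that make, process or degrade histone RNA, 10 were higher and 10 lower. Slbp, the stem-loop binding protein, stood at 15.9 ± 2.16 CPM in aged and 16.8 ± 0.436 CPM in young mice (log2 fold change -0.08), Npat, the S-phase activator of histone transcription, had 0.08, and Lsm11, of the U7 particle that cuts the 3' end, had 0.05. Eri1, an exonuclease that trims histone RNA, stood at 19.7 ± 1.43 and 23.0 ± 0.912 CPM (log2 fold change -0.23, adjusted p = 0.142 by edgeR). Upf1 and Zcchc6, the most abundant of the list, had log2 fold changes of -0.20 and 0.19.

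Histone genes outside the replication-dependent rule also gave no call. Of 11 tested 5 were higher and 6 lower. H1f0, the linker histone of cells that no longer divide, had a log2 fold change of 0.47 (adjusted p = 0.133 by edgeR) and lay higher in all 4 aged mice, and H3f3b, which encodes the replacement histone H3.3, had 0.17. Of 20 tested histone chaperones 14 were higher and 6 lower. Atrx had a log2 fold change of 0.32 and Supt6h -0.08. Npm1, a nucleolar chaperone, had 0.51 with an adjusted p of 0.0390 by edgeR and passed the adjusted p alone but not the fold threshold.

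Most cell cycle genes had fold changes above 0 in one phase list and below 0 in the other, with 0 called in either. S-phase and replication genes summed to 285, 296, 291 and 289 CPM in aged and 260, 278, 267 and 270.0 CPM in young mice, with 18 of 27 tested higher and 9 lower. Rrm1, a subunit of ribonucleotide reductase, had a log2 fold change of 0.47 (adjusted p = 0.0661 by edgeR). G2 and M phase genes summed to 20.6, 22.4, 25.6 and 31.3 CPM in aged and 44.6, 46.1, 34.6 and 33.0 CPM in young mice, with 2 of 16 tested higher and 14 lower (median log2 fold change -0.67). Mki67, the Ki-67 proliferation antigen, had a log2 fold change of -0.85 (adjusted p = 0.100 by edgeR), Top2a, the mitotic topoisomerase, -1.11 (adjusted p = 0.0811 by edgeR), and Nusap1 -0.60. In both lists the sums did not overlap between the ages. The sum of all 68 histone genes overlapped, as did every class sum but that of H2B.

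Small RNAs that also lack a poly(A) tail were counted in the same libraries. Of 123 rows 35 could be tested, of which 28 were higher and 7 lower in aged mice (median log2 fold change 0.25). Among all genes tested 54.1% were higher. Their sum ran from 8852 to 11362 CPM in aged and from 7583 to 9575 CPM in young mice. Rpph1, the RNA of RNase P, had a log2 fold change of 0.29, and Rmrp, the RNA of RNase MRP, 0.12. The median of the 41 histone genes, as given above, was -0.21.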

How the data were processed

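The authors depleted ribosomal RNA, sequenced stranded paired-end libraries, aligned them to mm9 with TopHat2 and counted the pairs with HTSeq, strand included, on the RefSeq models. CASAVA 1.8.2 and SAMtools are in the submitters' notes, and the other versions are not given in the sources used here. They deposited raw counts per gene without normalization. The joint table held the same values as the tables of single libraries. Groups, ages and replicate numbers came from the labels. P-values weigh the difference between the ages against the spread between these mice.

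Counts were analyzed in R 4.3.3 with edgeR 4.0.16 (TMM, filterByExpr with a minimum count of 10, quasi-likelihood, group only, Benjamini-Hochberg). On simulated counts edgeR recovered 92.9% of 197 changed genes among 13843, with 5.18% of calls false. Recovery at the fold changes seen for the histone genes was not tested separately. Alternatives were other scalings and filters, DESeq2 1.42.0 (the DESeq of the study's methods was not run), limma 3.58.1 voom with quality weights, the replicate number as a block, and each mouse left out in turn. Gene models came from GENCODE vM1 of mm9, which may differ from the RefSeq models counted. Copies were sought with BLAST 2.17.0, run from Python 3.11.15.

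The members and gene lists were chosen with earlier results of these data known. Genes named are those called, the 10 most abundant, the 5 with the smallest p in each direction, those of the copy groups, the testis forms, and in each companion list the 2 most abundant, those called, and Slbp, Npat, Lsm11, Eri1, Mki67 and Top2a. Names outside this rule follow from a count or a pair. The result of 1 gene named by this rule is not reported here.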

Additional observations from a re-analysis of the deposited data

Results flagged for a closer look

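In groups of 4 mice a mouse was picked out when its gap to the nearest other mouse, divided by the range of the group, exceeded Dixon's critical value. Of 152 groups of gene and list values 9 were picked out, and chance alone gives about 7.6. Hist1h2ac was picked out in both ages, with aged mouse 4 lowest (0.955) and young mouse 3 lowest (0.851). Hist1h4d had aged mouse 4 lowest at 17.6 CPM (0.930). Hist1h4f had young mouse 4 highest at 3.96 CPM (0.899), and Hist2h3c2-ps had aged mouse 3 highest at 1.39 CPM (0.936). Among the companion genes Npat had aged mouse 1 highest (0.860) and Eri1 had aged mouse 1 lowest (0.833). The histone chaperone list had aged mouse 2 lowest (0.942), and the plasma cell list had aged mouse 3 highest (0.922).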

How the results depend on the processing

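The number of histone genes called was 1 under the other scalings, filters and tools. It was 0 with the replicate number as a block (Hist1h4h adjusted p = 0.0547 from edgeR) and 0 to 2 with each mouse left out, reaching 2 (Hist1h4h and Hist2h3b) without aged mouse 4 and 0 without each young mouse. Over all genes the 287 called (163 higher, 124 lower) became 488 with library size only (368 higher, 120 lower), 873 with DESeq2, 483 with limma-voom, 130 with the replicate block, and 8 (without young mouse 1) to 733 (without aged mouse 4) with each mouse left out, and upper-quartile scaling split them into 194 higher and 103 lower. Companion genes called were 3 with library size only, 5 with DESeq2 and 0 to 5 with each mouse left out. Whether the numbers of the replicates pair the mice is not known. Deviations of same-numbered mice correlated at 0.21, 0.04, 0.20 and -0.03, and those of mice with different numbers at -0.30 to 0.17. The log2 ratio of the summed histone level ran from -0.13 to 0.18.

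Log2 fold changes near 0 changed sign in places. Library size only gave Hist1h4k 0.041, Slbp 0.028 and Supt6h 0.035. Limma-voom gave Hist1h3e -0.45, and the block gave Hist1h3e -0.17. With each mouse left out the ranges crossed 0 for Hist1h3e (-0.59 without aged mouse 1 to 0.27), Hist1h3f (-0.39 to 0.021 without aged mouse 4), Hist1h4k (-0.41 to 0.086 without aged mouse 4), Hist3h2a (-0.40 to 0.038 without aged mouse 1), Lsm11 (-0.10 without aged mouse 3 to 0.13) and Npat (-0.022 without aged mouse 1 to 0.11). The causes were not tested.

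Depth limits the 33 genes at or below 1 CPM, and copies limit most H3 genes.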
